A study of Mus musculus with 2 samples.

Results

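The imprinted domain at the distal end of mouse chromosome 7 was examined in a methylRAD series, as all sites listed between positions 142550000 and 143480000 of chromosome 7 (GRCm38). It held 983 of the 1370254 positions listed in either library. The cells were F9, a mouse embryonal carcinoma line, either undifferentiated, or differentiated in low-attachment dishes with retinoic acid at 1 µM until day 4. Values given as before and at day 4 are those of these libraries, and the domain held 689 listed sites before and 824 at day 4. MethylRAD sequences the short fragments that the enzyme FspEI releases around methylated cytosines, and its counts per site rise with methylation. Each cell state was 1 library of 1 cell line, so no value below has a replicate. Every test compares 2 libraries and not the conditions, and intervals cover no more than counting error. PCR copies of a fragment are not separate molecules, so intervals can be too narrow and p-values too low even for counting error. The tables hold no expression, so the cell state was not checked against marker genes.

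In an imprinted domain, genes are expressed from the copy inherited from one parent, under the direction of a control region that is methylated on one parental copy. The H19 control region carries its methylation on the paternal copy. On the unmethylated maternal copy it is bound by the insulator protein CTCF, H19 is transcribed, and the growth factor gene Igf2 is kept apart from the enhancers it shares with H19. The Kcnq1ot1 control region is methylated on the maternal copy. On the paternal copy it starts the long noncoding RNA Kcnq1ot1, which silences neighbouring genes, among them Cdkn1c, an inhibitor of cyclin-dependent kinases. The tables do not separate the parental copies, so a count is a sum over both.

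A site was one of 3 motifs. CCGG holds a CpG, and CCAGG and CCTGG place the methylated cytosine outside CpG. A site was listed only with at least 5 counts, and an unlisted site therefore had at most 4 counts, or no motif at all. At 1 position of the domain the motif differed between the libraries, and it was left out of the counts and tests of sites. Its 61 and 40 counts stayed only in the share of counts by motif. The domain then held 494 CCGG sites, 428 listed before and 430 at day 4. Their counts summed to 9490 of 16687588 CCGG counts and to 10479 of 15705436 CCGG counts. At these totals a floor of 3 counts corresponded to a level of 0.18 and 0.19 counts per 1000000 CCGG counts. The median count of the domain's CCGG sites was 19 before and 20.5 at day 4, beside 19 and 17 over all CCGG sites of the series.

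The sequences printed here show what the assay could read at the genes of the domain, with every CCGG in capitals. They are from RefSeq (GRCm38.p6), 5′ to 3′ on the minus strand, on which these genes lie. The first spans the start of Kcnq1ot1 inside its control region (chr7:143296498-143296797). The others are the 250 bases before a start of Igf2 (chr7:142657497-142657746), before a second start of Igf2 (chr7:142658805-142659054) and before the start of Ascl2 (chr7:142969265-142969514).
Kcnq1ot1: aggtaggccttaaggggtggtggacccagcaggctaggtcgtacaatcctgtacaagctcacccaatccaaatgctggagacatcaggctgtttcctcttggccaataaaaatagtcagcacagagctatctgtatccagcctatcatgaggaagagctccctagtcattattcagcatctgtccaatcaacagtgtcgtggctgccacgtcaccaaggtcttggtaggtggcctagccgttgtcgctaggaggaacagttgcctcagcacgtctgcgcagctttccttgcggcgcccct
Igf2, first: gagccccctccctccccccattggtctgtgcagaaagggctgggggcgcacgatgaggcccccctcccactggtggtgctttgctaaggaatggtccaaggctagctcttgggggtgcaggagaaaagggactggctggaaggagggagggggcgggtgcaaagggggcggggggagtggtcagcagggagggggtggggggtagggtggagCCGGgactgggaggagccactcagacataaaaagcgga
Igf2, second: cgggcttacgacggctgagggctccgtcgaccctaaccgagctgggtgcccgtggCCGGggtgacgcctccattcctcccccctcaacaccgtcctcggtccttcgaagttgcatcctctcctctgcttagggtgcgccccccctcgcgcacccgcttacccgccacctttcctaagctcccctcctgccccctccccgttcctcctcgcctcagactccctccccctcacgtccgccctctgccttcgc
Ascl2: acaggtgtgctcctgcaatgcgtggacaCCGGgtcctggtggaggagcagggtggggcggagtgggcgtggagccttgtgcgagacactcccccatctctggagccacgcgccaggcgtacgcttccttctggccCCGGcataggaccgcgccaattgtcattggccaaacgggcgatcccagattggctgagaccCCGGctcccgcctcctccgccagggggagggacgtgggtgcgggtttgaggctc
The Kcnq1ot1 window held 9 CpG dinucleotides and 0 copies of CCGG, CCAGG or CCTGG, searched on both strands. Of 32851 RefSeq promoter windows of 300 bases, 52.8% held CCGG, 46.5% CCAGG, 47.7% CCTGG and 16.1% none of these. The absence of these letters says only that methylRAD has no site to count there. In the first Igf2 window the CCGG at position 142657531 had 8 counts in the undifferentiated library and was unlisted in the differentiated library. The CCGG of the second window, at position 142658996, was unlisted in both libraries. Of the 3 CCGG copies before Ascl2, the one at position 142969376, which starts at base 136 of the printed run, had 5 counts in the differentiated library and the others were unlisted in both.

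The first comparison was between the control regions and the rest of the domain. The H19 control region (142580000 to 142582200) held 3 listed CCGG sites and 2 listed CCTGG sites, each listed in both libraries. The Kcnq1ot1 control region (143294700 to 143296800) held 0 listed sites of any motif in either library. CCGG counts in the H19 control region summed to 69 before and 34 at day 4, a mean of 23 and 11.3 per listed site over 2201 bp. In the rest of the domain the mean per listed CCGG site was 22.2 and 24.5. The average over the 3 sites was near that of the rest of the domain before differentiation and below it at day 4. The single sites, with 49, 13 and 7 counts before, were not near it, and the highest of them carried the average.

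That site, at position 142582199, was 1 bp inside the end of the region. It had 49 counts before and 11 at day 4, levels of 2.94 and 0.70 counts per 1000000 CCGG counts. Its log2 ratio of differentiated to undifferentiated level was -2.07 (95% interval -3.16 to -1.10), and it fell by Fisher's exact test with an adjusted p of 6.10e-05. Both sites near the centre of the region had low counts. Position 142581141 had 13 counts before and 15 at day 4, a log2 ratio of 0.29 (95% interval -0.88 to 1.48). Position 142581385 had 7 and 8 counts, a log2 ratio of 0.28 (95% interval -1.38 to 1.98). The adjusted p of these sites was 0.830 and 0.883 by the same exact test, and their intervals include changes in either direction.

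Summed over the region, the log2 ratio of CCGG counts was -0.93 (95% interval -1.57 to -0.32) in the H19 control region and 0.23 (95% interval 0.19 to 0.27) in the rest of the domain. For these sums an unlisted site was given 4 counts, the highest value the listing minimum permits. The difference of the log2 ratios was -1.16 (95% interval -1.8 to -0.55), with a two-sided p of 9.59e-05 by Fisher's exact test on the summed counts. Without the site at position 142582199 it reversed to 0.0577, with 20 counts before and 23 at day 4. The same value was found when the region was narrowed by 500 bp at each end. The fall of the region is therefore the fall of 1 site at its boundary, which is itself given only approximately.

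At the opposite end of the H19 control region a CCTGG site, 235 bp from the start of the region at position 142580235, also fell. It had 23 counts before and 8 at day 4. Its log2 ratio against the CCAGG and CCTGG totals was -2.06, with an adjusted p of 0.011 by Fisher's exact test over the sites of these motifs. The remaining CCTGG site, at position 142581808, had 5 and 7 counts. Of all 454331 CCAGG and CCTGG sites tested in the series 5.72% were called, 1.18% higher and 4.53% lower, and in the domain 19 of 384.

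**Figure D1:**
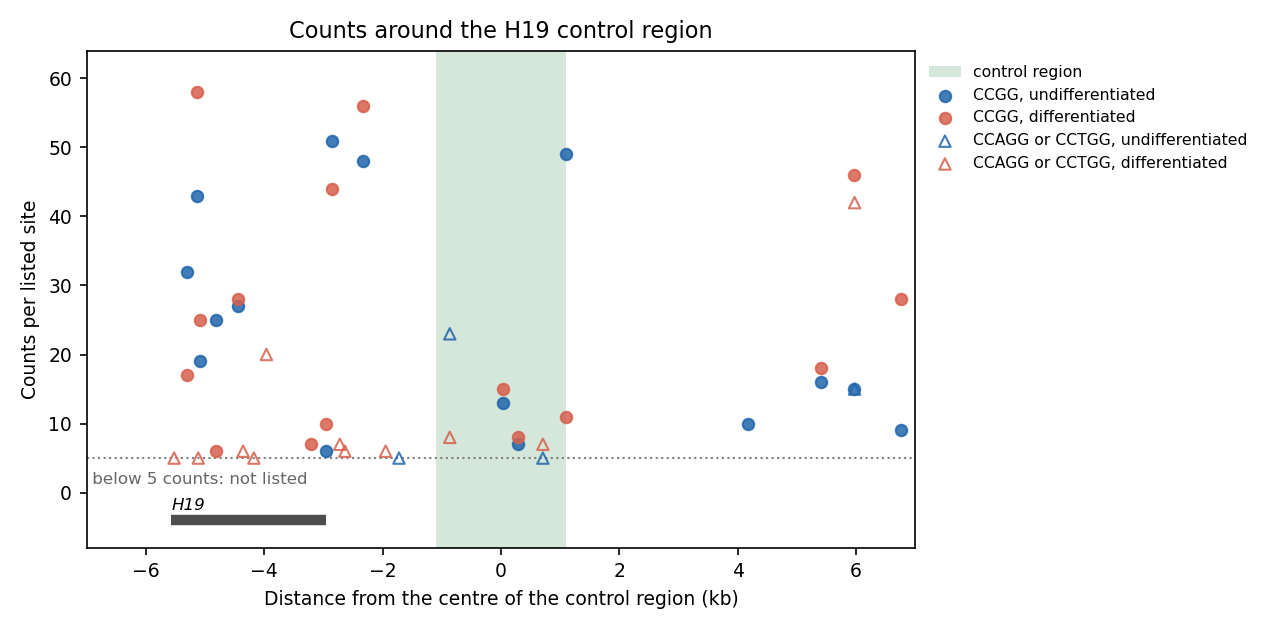
Counts per listed site (y axis) against distance from the centre of the H19 control region in kb (x axis), for CCGG sites (circles) and CCAGG or CCTGG sites (triangles) in both libraries. Each symbol is 1 site in 1 library, and the dotted line marks the listing minimum of 5 counts. At the right edge of the shaded region the site with 49 and 11 counts stands apart from both central sites, whose counts lie between 7 and 15.

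How many listed sites such a stretch usually holds was read from windows of the same length tiled over the autosomes. Of 1091691 windows of 2201 bp, 7.14% held at least 3 listed CCGG sites, as the H19 control region did. Of the 77917 of these that could be compared, 6.36% had a log2 ratio at least as low. Of 1143648 windows of 2101 bp, 59.4% held no listed CCGG site. An empty stretch the size of the Kcnq1ot1 control region was thus the common case among all these windows, whatever their CCGG content. How many CCGG copies the whole region contains was not analysed here. The share therefore does not show whether its emptiness is usual for its sequence. The emptiness reached beyond the region. The nearest listed CCGG sites were at positions 143287518 and 143299485, 11967 bp apart, and 9 of the domain's 493 gaps between neighbouring CCGG sites were longer. In the series 5.24% of such gaps were at least as long. These figures count each gap once, while a region chosen beforehand falls more often in a long gap than in a short one. They therefore do not show how unusual the emptiness around the region is. A CCAGG site at position 143298834, with 5 counts in the differentiated library, was the only listed site of another motif between positions 143287518 and 143299485.

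Both sites that flank this gap lie within Kcnq1, which spans the whole interval. The site on the side of the Kcnq1ot1 transcript, at position 143287518, had 30 counts before and 23 at day 4. Its log2 ratio was -0.30 and did not pass the test (adjusted p 0.671, Fisher's exact test). The site upstream of the Kcnq1ot1 start, at position 143299485 and 2938 bp from it, had 56 and 22 counts. It fell, with a log2 ratio of -1.26 (95% interval -2.04 to -0.53) and an adjusted p of 0.00378 by the same exact test. The next CCGG site, at position 143299788, had 36 and 33 counts. A CCAGG site 5 bp from that one had the same counts, and sites this close can be covered by the same reads.

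**Figure D2:**
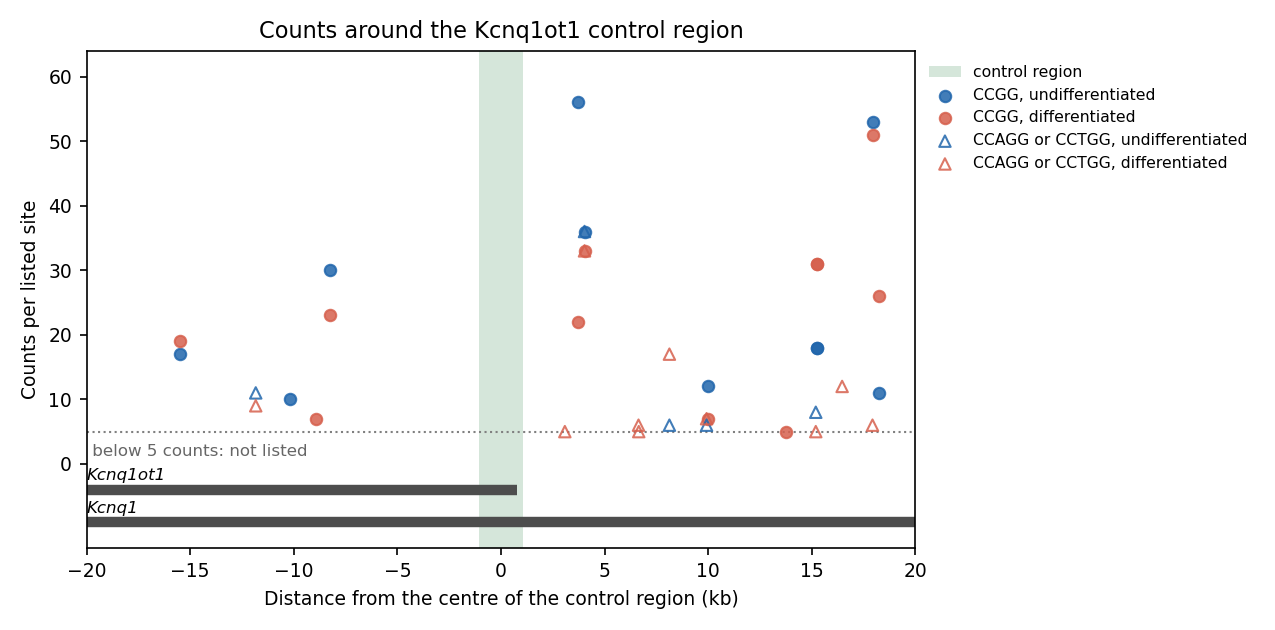
Counts per listed site (y axis) against distance from the centre of the Kcnq1ot1 control region in kb (x axis), with symbols for motif and library as in the plot of the H19 control region. No symbol lies in the shaded region or in the 7182 bp between it and the nearest listed site on the left.

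H19, a noncoding RNA and the host of a microRNA, spans 2617 bp (142575530 to 142578146). It held 7 listed CCGG sites, or 26.7 per 10 kb, beside 5.31 per 10 kb in the whole domain. Counts at these sites ranged from 6 to 43 in the 6 sites listed in the undifferentiated library, and from 6 to 58 in the 7 sites listed in the differentiated library. The sums were 152 and 151, and with the unlisted site at 4 counts the log2 ratio was 0.04 (95% interval -0.29 to 0.37). H19 sites thus did not move in one direction. The site at position 142576290 fell from 25 to 6 counts, a log2 ratio of -1.97 with an adjusted p of 0.00801 by Fisher's exact test, and it was the only one of the 7 that passed, beside 23.5% of all CCGG sites tested in the series. The site at position 142575967, the highest in the gene, had 43 and 58 counts and did not pass (adjusted p 0.188, exact test).

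Between H19 and its control region lay 2 CCGG sites with high counts in both libraries. Position 142578241, just beyond the gene, had 51 counts before and 44 at day 4. Position 142578767 had 48 and 56 counts. Neither passed the test (adjusted p 0.811 and 0.463, Fisher's exact test). These values were above the 13 and 15 counts and the 7 and 8 counts of both central sites of the control region, in each library. Counts at different CCGG sites also depend on sequence around the site, and the effect of this on the contrast was not tested.

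Outside CpG, H19 went from 0 listed CCAGG or CCTGG sites in the undifferentiated library to 5 in the differentiated library. The number of such sites rose in total, from 260 to 393 in the domain and from 314257 to 448177 in the series. All but one of these had 5 or 6 counts. The exception, a CCTGG site at position 142577137, was unlisted before and had 20 counts at day 4. It lies inside the hairpin of miR-675, the microRNA cut from H19, which RefSeq places at chr7:142577064-142577147 on the minus strand. The hairpin is printed with the listed site in capitals, read there as the reverse complement.
Mir675: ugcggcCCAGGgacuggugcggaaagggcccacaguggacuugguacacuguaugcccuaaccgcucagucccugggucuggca
The hairpin holds a second such motif near its 3′ end, which was unlisted in both libraries. Against the CCAGG and CCTGG totals the log2 ratio of the listed site was at least 1.79, and it did not pass the test (adjusted p 0.175, Fisher's exact test).

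Igf2 encodes a fetal growth factor and spans 16049 bp (142650768 to 142666816). It held 18 listed CCGG sites, 13 listed before and 14 at day 4, with 9 in both. Sums were 212 and 302 counts, with a median of 10 and 17.5 per listed site. With unlisted sites at 4 counts the log2 ratio was 0.54 (95% interval 0.29 to 0.79). The test called 5 of the 18 sites higher and 0 lower, beside 11.6% called higher and 11.9% called lower among all 763323 CCGG sites tested. The number called depended on the scaling and on the value given to unlisted sites. With these at 0 counts, 6 of 12 tested Igf2 sites were called higher and 3 lower, and 38.8% of all CCGG sites tested were called. With the median ratio over well-covered sites as the scale, every CCGG log2 ratio shifts by -0.16, and 3 Igf2 sites were called higher and 1 lower. With the divisors behind the deposited RPM values the shift is -0.23, and 2 sites were called higher and 1 lower. In the series the share of called sites that were higher also fell under these scalings, from 49.3% to 35.9% and 31.0%.

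All 5 Igf2 sites called higher lay within 5.7 kb, between positions 142651609 and 142657312. The largest rise was at position 142652674, from 6 to 51 counts, a log2 ratio of 3.17 (95% interval 1.95 to 4.69) with an adjusted p of 3.12e-08 by Fisher's exact test. Position 142651609, about 1 kb away, rose from 26 to 52 counts (adjusted p 0.010, exact test, and 0.052 with the divisors of the RPM values). Position 142657282 rose from 5 to 23 counts, and position 142657312, 30 bp from it, had 23 and 44 counts. Position 142653945 was unlisted in the undifferentiated library and had 15 counts in the differentiated library. The calls at positions 142657312 and 142653945 were lost under both other scalings, and those at positions 142652674 and 142657282 were not. In the same stretch position 142654586 had 39 and 19 counts, a log2 ratio of -0.95 that missed the threshold (adjusted p 0.068, exact test).

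Across the other parts of the Igf2 neighbourhood the values were mixed. Igf2os, the antisense transcript that overlaps the upstream part of Igf2, held 12 CCGG sites with 256 and 323 counts. Of these 12, 3 were called higher and 0 lower, beside 11.6% called higher and 11.9% lower in the series. With unlisted sites at 0 counts, 3 of 10 tested Igf2os sites were called higher and 2 lower. In that setting 38.8% of all CCGG sites tested were called, and 46.7% of the called sites were higher. Among the Igf2os sites called higher, position 142669790 had 27 counts before and 69 at day 4. Position 142669803, also called higher, lies within 16 bp of it, and both can be covered by the same reads. Position 142669717, one of the highest CCGG sites of the domain, had 70 and 73 counts and a log2 ratio of 0.15, which turned to -0.00817 and -0.0783 under the other scalings. The stretch of 68.6 kb between the H19 control region and Igf2 held 38 CCGG sites. Of 37 tested 9 were called higher and 2 lower, beside the series shares of 11.6% and 11.9%. In that stretch position 142624724 fell from 33 to 6 counts, and position 142622793, within the next 2 kb, rose from unlisted to 24 counts. Position 142600073 rose from unlisted to 20 counts. Position 142600081, also called higher, is 8 bp from it and had the same log2 ratio, 2.41. Both can be covered by the same reads. Ins2, an insulin gene next to Igf2, held 1 listed CCGG site, with 46 and 40 counts.

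**Figure D3:**
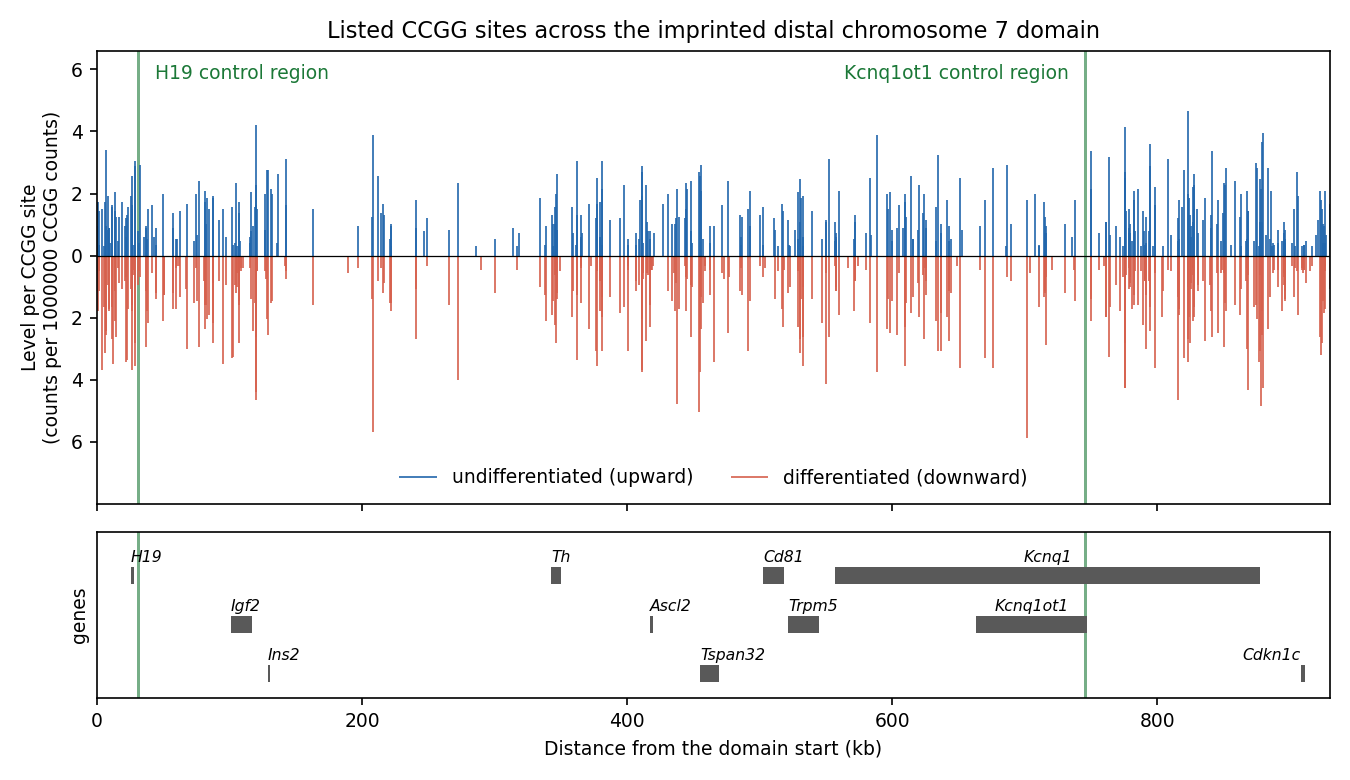
Level of each listed CCGG site (y axis, counts per 1000000 CCGG counts) against distance from the start of the domain in kb (x axis), upward for the undifferentiated and downward for the differentiated library, with RefSeq genes below and both control regions shaded. Sites are sparse between Ins2 and Th, where 35 CCGG sites were listed over 213 kb, and none is drawn at the Kcnq1ot1 control region.

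Kcnq1 encodes a voltage-gated potassium channel and fills 320 kb of the domain (143106877 to 143427050). It held 168 listed CCGG sites, 148 before and 147 at day 4, with 127 in both. Its counts summed to 3497 and 3756, a log2 ratio of 0.19 (95% interval 0.12 to 0.26) with unlisted sites at 4 counts. That direction depended on the scaling, and it was 0.03 under median-ratio scaling and -0.0364 with the divisors of the RPM values. Of 162 sites tested in Kcnq1, 28 were called higher and 13 lower, beside 11.6% called higher and 11.9% called lower in the series. Under median-ratio scaling 19 were called higher and 15 lower, and with the divisors 18 and 21. In the series the share of called sites that were higher also moved, from 49.3% to 35.9% and 31.0%. The largest rise was at position 143426566 near the end of the gene, from 5 to 54 counts, a log2 ratio of 3.52 with an adjusted p of 2.06e-09 by Fisher's exact test. The highest site of the gene by count in the undifferentiated library, at position 143372983, went the other way, from 78 to 42 counts (adjusted p 0.020, exact test). Position 143325532, the highest by summed count, had 69 and 67 counts and did not pass.

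Listed sites were spread unevenly along Kcnq1. The part overlapped by Kcnq1ot1, the antisense noncoding RNA of 83.4 kb (143213111 to 143296547), held 21 CCGG sites, or 2.52 per 10 kb. On the side before this overlap Kcnq1 held 50 sites, or 4.71 per 10 kb, and on the side after it 97 sites, or 7.43 per 10 kb. The median count per listed site was 17 before and 19 at day 4 within Kcnq1ot1, and 19.5 and 23.5 in the remainder of Kcnq1. Fewer listed sites per kb can come from fewer CCGG copies or from less methylation, and without the count of CCGG copies these cannot be told apart.

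Within Kcnq1ot1, CCGG counts summed to 385 and 437, a log2 ratio of 0.28 (95% interval 0.08 to 0.48), and the interval reached below 0 under both other scalings. Of 20 sites tested, 4 were called higher and 2 lower, beside 11.6% and 11.9% in the series. Under the other scalings 3 were called higher and 2 lower, while the share of called sites that were higher in the series moved as given for Kcnq1. Position 143251480 rose from 30 to 92 counts, the highest CCGG count of the domain in the differentiated library, with an adjusted p of 3.14e-07 by Fisher's exact test. Position 143266049 rose from 16 to 45 counts (adjusted p 0.00124, exact test). Position 143236174 fell from 49 to 11 counts. Position 143257411 had 33 counts in the undifferentiated library and was unlisted in the differentiated library, at least 7.76-fold lower when 4 counts are taken there (adjusted p 5.60e-05, exact test). CCAGG and CCTGG sites in Kcnq1ot1 went from 5 listed sites with 87 counts to 11 listed sites with 291 counts, beside the gain from 260 to 393 listed sites in the domain. Several of these lie within 16 bp of a CCGG site and have nearly its counts, as at position 143251473, with 30 and 93 counts.

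Cdkn1c, which lies past the end of Kcnq1 (143458339 to 143461059), had low counts at every listed site. Of its 5 listed CCGG sites, 3 were listed in the undifferentiated library, with 5, 6 and 6 counts. In the differentiated library all 5 were listed, with 6 to 9 counts. Positions 143460371 and 143460381 are 10 bp apart and had the same counts, and they can be covered by the same reads. With 17 and 36 listed counts, and with unlisted sites at 4 counts, the log2 ratio was 0.61 (95% interval -0.16 to 1.41), and 0 of the 5 sites passed the test. With unlisted sites at 0 counts the log2 ratio was 1.17 (95% interval 0.30 to 2.09), so whether the interval includes 0 depends on the value given to 2 unlisted sites. The 31.3 kb between Kcnq1 and Cdkn1c held 38 CCGG sites, and of 37 tested 6 were called higher and 2 lower, beside 11.6% and 11.9% in the series.

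The other genes of the domain were taken from a list of 14 genes chosen for their place in it. Ascl2, a transcription factor of the trophoblast, had 2 listed CCGG sites with 9 and 13 counts before and 6 sites with 7 to 36 counts at day 4. Its log2 ratio was 1.32 (95% interval 0.75 to 1.90) with unlisted sites at 4 counts. It lay between 1.09 and 2.1 under the alternatives run, the low end with the divisors of the RPM values and the high end with unlisted sites at 0. Position 142967179 rose from 9 to 36 counts and was the only one of its 6 sites that passed the test, beside 23.5% of all CCGG sites tested in the series. Both sites listed in the undifferentiated library had higher counts in the differentiated library, and each site seen only there had 7 counts. A pair of those, at positions 142967630 and 142967635, is 5 bp apart and can be covered by the same reads.

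The calls in the next genes stand beside 11.6% of all tested CCGG sites called higher and 11.9% called lower. Trpm5, a cation channel gene, had 229 and 308 CCGG counts, a log2 ratio of 0.55 (95% interval 0.30 to 0.80), with 2 of 12 sites called higher and 0 lower. With unlisted sites at 0 counts 4 of 11 tested Trpm5 sites were called higher and 1 lower, beside 38.8% called in the series. At a summed count of at least 20, 4 of 9 were called higher and 0 lower, beside 36.5%. Tspan32, a tetraspanin gene, had 132 and 176 counts, a log2 ratio of 0.42 (95% interval 0.09 to 0.75). The other scalings shift this interval by -0.16 and -0.23, more than its lower end, and it then includes 0. Of 7 tested Tspan32 sites 3 were called higher and 1 lower, and 1 in each direction under both other scalings. Th, the gene of tyrosine hydroxylase, had 178 and 191 counts, with 1 site called higher and 2 lower. Cd81, another tetraspanin gene, had 91 and 99 counts, with 1 site called lower. For Th, Cd81, Tssc4 and the part of Slc22a18 inside the domain the interval of the log2 ratio included 0 with the CCGG totals as the scale.

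**Figure D4:**
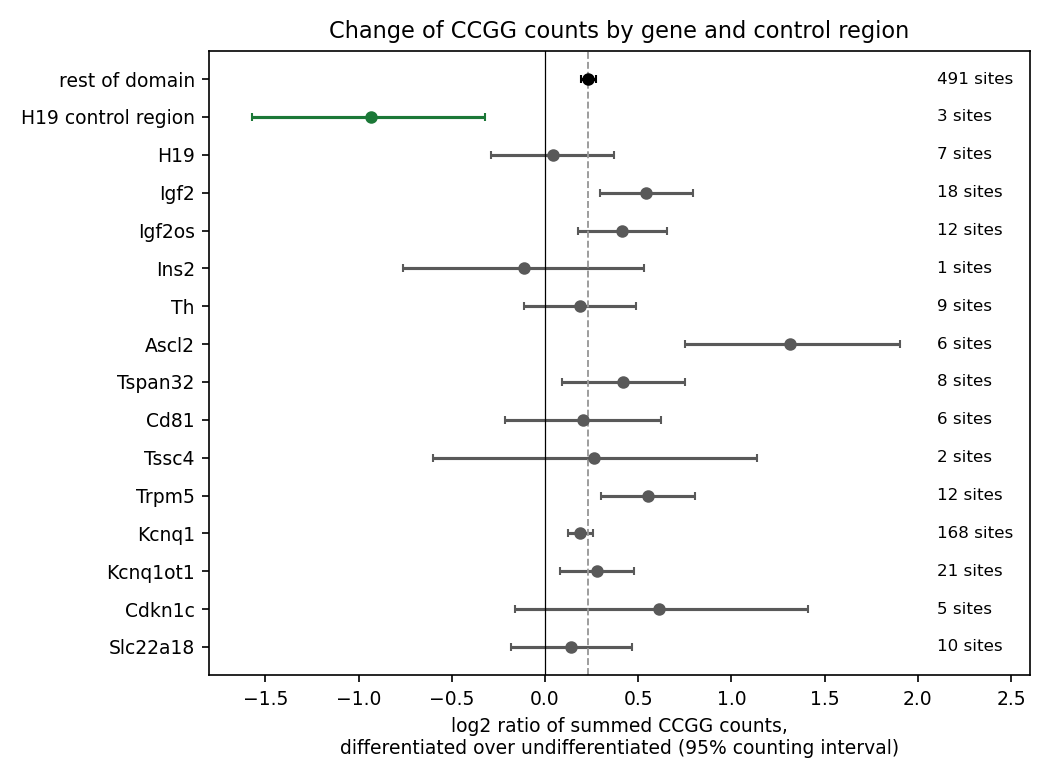
log2 ratio of summed CCGG counts, differentiated over undifferentiated (x axis), for each gene of the list, the H19 control region and the rest of the domain, with unlisted sites at 4 counts. Bars are 95% counting intervals, the number of CCGG sites is at the right, and the dashed line is the rest of the domain at 0.23. Ascl2, at 1.32, Trpm5, at 0.55, and Igf2, at 0.54, lie to the right of the line and the H19 control region, at -0.93, to the left, each with an interval that excludes the line.

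Over the whole domain, Fisher's exact test called 123 of 479 tested CCGG sites at an adjusted p under 0.05, which is 25.7%, beside 23.5% of all CCGG sites tested. Of the called sites 81 were higher and 42 lower in the differentiated library, 16.9% and 8.77% of those tested, beside 11.6% and 11.9% in the series. The share of called sites that were higher was 65.9% in the domain and 49.3% in the series. Under median-ratio scaling these shares were 56.1% and 35.9%, and with the divisors of the RPM values 50% and 31.0%. The median log2 ratio of tested CCGG sites was 0.26 in the domain, 0.09 on chromosome 7 and 0.02 in the series.

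Summed over the domain, the log2 ratio was 0.23 (95% interval 0.19 to 0.27). It was 0.07 under median-ratio scaling and -0.000549 with the divisors of the RPM values, so its direction is relative to the CCGG totals. Windows of the domain's length tiled over the autosomes had a median log2 ratio of 0.05 with a standard deviation of 0.15. Of 2598 such windows, 3.39% were at least as high as the domain. The domain was also dense in listed sites, and 17.3% of the 2600 windows held at least as many.

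Single sites in the domain changed far more than the domain did, and in both directions. Outside the stretch from H19 to Igf2, the largest rise was at position 142562212, 3614 bp beyond the noncoding gene Nctc1. It was unlisted in the undifferentiated library and had 55 counts in the differentiated library, at least 14.6-fold higher when 4 counts are taken (adjusted p 2.67e-10, Fisher's exact test). Position 142950283, 16539 bp from Ascl2, rose from 6 to 48 counts. The largest fall was at position 142686176, 6450 bp from Ins2, from 44 counts to unlisted, at least 10.4-fold lower (adjusted p 6.87e-07, exact test). Positions 143435961 and 142676289 fell from 35 and 33 counts to unlisted. The site with the highest summed count, at position 142757838, had 65 and 89 counts and did not pass (adjusted p 0.083, exact test).

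**Figure D5:**
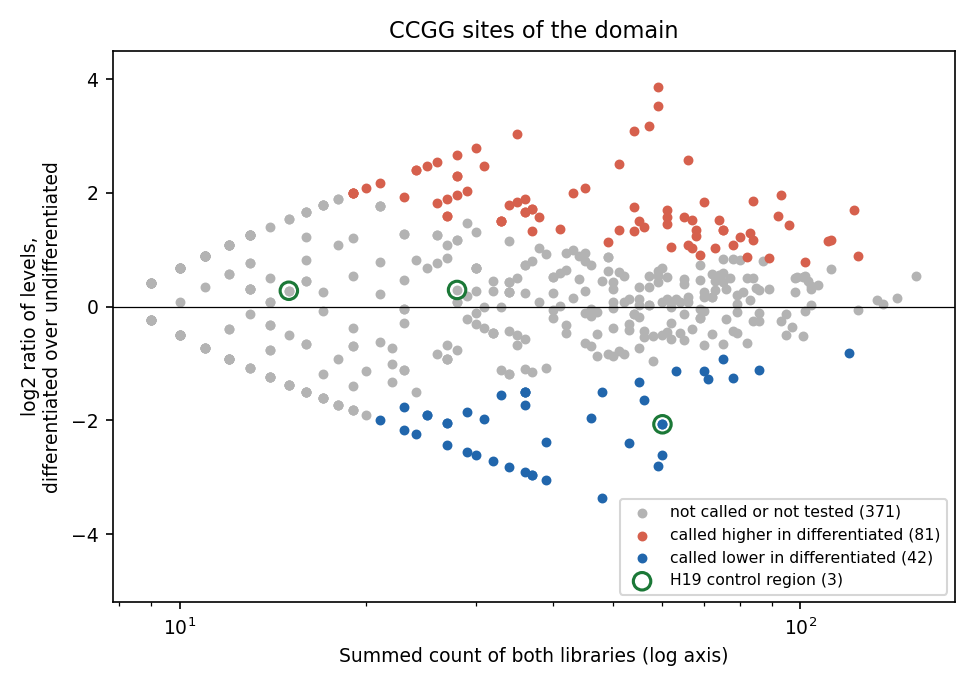
log2 ratio of each CCGG site of the domain (y axis) against its summed count on a log axis (x axis), with unlisted sites at 4 counts and called sites coloured by direction. The 81 sites called higher and 42 called lower lie on both sides of 0, and circles mark the 3 sites of the H19 control region, 1 of them called.

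Of the CCGG sites listed in the undifferentiated library, 85% were also listed in the differentiated library (95% Wilson interval 81.4% to 88.1%), beside 79.9% in the series. Of those listed in the differentiated library, 84.7% were also listed in the undifferentiated library (95% Wilson interval 80.9% to 87.8%), beside 84.9% in the series. The 64 sites listed only before differentiation had a median of 10.5 counts, and the 66 listed only after it a median of 8.5 counts. RefSeq promoter windows in the domain held 20 distinct CCGG copies, of which 6 were listed before and 7 at day 4. Of 39736 CCGG copies in all promoter windows of the series, 10.3% and 11.7% were listed.

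CCAGG and CCTGG sites were the last readout. They took 24.8% of the domain's counts in the undifferentiated library (95% Wilson interval 24.1% to 25.6%) and 32.9% in the differentiated library (32.2% to 33.7%), a difference of 8.12 percentage points. Fisher's exact test on the summed counts gave a two-sided p of 9.48e-51. In the whole series the shares were 18.8% and 26.2%. Within 16 bp of a CCGG site lay 72 of the domain's 488 listed CCAGG and CCTGG sites, and counts of 58 of the 73 such pairs agreed within 2 counts in both libraries. Without those sites the domain's shares were 16.1% and 25%, a difference of 8.83 points. Over sites listed in both libraries alone the difference was 2.9 points. Site by site, and against their own totals, 9 of 384 tested sites were called higher and 10 lower, 2.34% and 2.6%, beside 1.18% and 4.53% in the series. The largest rise was at position 142641768, between the H19 control region and Igf2, from unlisted to 40 counts (adjusted p 0.000463, Fisher's exact test). Position 142656811 in Igf2 went from 22 counts to unlisted (adjusted p 0.000669, exact test).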

How the data were processed

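MethylRAD counts of 2 F9 libraries, 1 undifferentiated and 1 differentiated, were grouped by the cell state in the labels. The count of each site is a whole number of reads deposited by the authors, with a minimum of 5. The deposited RPM value is a multiple of the count and was treated as a score. It served only as an alternative scaling. The submitters' processing notes name FastQC 0.11.3, Bowtie2 2.3.3 and GRCm38, and other steps are not given in the sources used here. Of 6233 listed CCGG sites in RefSeq promoter windows of GRCm38.p6, 98.3% had CCGG at the listed position, so positions are 1-based from the first C.

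Gene positions and sequences are from RefSeq on the same build, as whole gene spans. Of 14 listed genes, 9 had a promoter entry. Levels are counts per 1000000 CCGG counts. A site unlisted in one library was given 4 counts. A two-sided Fisher's exact test compared each site, with all other counts of its motif class as the remainder, and p-values were adjusted by Benjamini-Hochberg over all sites of that class whose summed count reached 10, at a threshold of 0.05. Intervals of log2 ratios are 95% exact conditional intervals and those of shares Wilson intervals. No spread between replicates could be estimated. The test was checked on simulated data, which cannot stand in for the unknown spread between replicates. Python 3.11.15, numpy 2.4.6, scipy 1.17.1, pandas 2.3.3 and matplotlib 3.10.9 were used.

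Named sites were all those of the control regions, the 3 CCGG sites with the highest summed count, and the 3 called sites with the largest rise and fall, from H19 to Igf2 and elsewhere. Further sites were named after their values were seen. Members, lists and rules were chosen with earlier results of these data known. Alternatives concerned scaling, unlisted sites, alignment type, minimum count, the 1000 highest sites, region bounds and sites that share reads. Added after seeing the data were the tests of single CCAGG and CCTGG sites and the calls per gene and between Ins2 and Th. The summed ratios of the domain and its genes and the share called higher, with their alternatives, were also added then. So were the number of listed sites in the Kcnq1ot1 control region with its alternatives, the narrowed H19 region and the 16 bp limit.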

Additional observations from a re-analysis of the deposited data

How the results depend on the processing

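The number of CCGG sites called in the domain, 123, lay between 96 and 168 under the alternatives run, which was 96 of 364 tested at sites listed in both libraries and 168 of 426 with unlisted sites at 0 counts, beside 23.5% and 38.8% called in the series. Igf2 had 5 of 18 tested sites called higher and 0 lower. By the median ratio 3 of 18 were higher and 1 lower, and by the divisors of the RPM values 2 of 18 and 1. With unlisted sites at 0 counts 6 of 12 were higher and 3 lower. At a summed count of at least 20, 5 of 8 were higher and 1 lower. In the series 23.5%, 23.5%, 23.6%, 38.8% and 36.5% of CCGG sites tested were called in these settings, in this order. Of the called sites in the series 49.3%, 35.9%, 31.0%, 46.7% and 48.5% were higher. The difference between the H19 control region and the rest of the domain, -1.16, lay between -1.16 and -1.41 under the scaling, listing, alignment, count and widening alternatives. It reversed to 0.0577 without its highest site, and to the same value with the region narrowed by 500 bp, which removes that site. The Kcnq1ot1 control region held 0 listed sites with full-match alignments only and when widened by 500 bp. Median-ratio scaling shifts every log2 ratio by -0.16 and the divisors of the RPM values by -0.23. The domain's log2 ratio, 0.23, reversed to -0.000549 with the divisors. H19, at 0.04, reversed to -0.12 under median-ratio scaling, -0.19 with the divisors and -0.0362 at a summed count of at least 20, while its interval included 0 throughout. Kcnq1, at 0.19, reversed to -0.0364 with the divisors. The sites at positions 142669717 and 143325532 reversed to -0.00817 and -0.11 under median-ratio scaling and to -0.0783 and -0.18 with the divisors, and neither passed the test. The CCAGG and CCTGG difference of 8.12 points was 2.9 points at sites listed in both libraries. The overlap of 85% was 77.7% with at least 10 counts. The listed share of all CCGG copies by part of the domain was not run, because it needs the genome sequence. No paired analysis was possible because each group has 1 library. Sites with a summed count under 10 were not tested.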

Other observations

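The stretch between Ins2 and Th was sparse in listed sites. Over 213 kb it held 35 listed CCGG sites, or 1.64 per 10 kb beside 5.31 in the whole domain, and the 5 longest gaps between neighbouring CCGG sites of the domain, 16.1 to 26.1 kb, all lay in it. Its log2 ratio of summed CCGG counts was -0.12 (95% interval -0.28 to 0.04), with 4 of 32 tested sites called higher and 5 lower, near the series shares of 11.6% and 11.9%. Under median-ratio scaling the log2 ratio was -0.28 (95% interval -0.43 to -0.12), with 1 site called higher and 6 lower. With the divisors of the RPM values it was -0.35 (95% interval -0.50 to -0.19), with 0 higher and 7 lower, so whether the interval includes 0 depended on the scaling. The series moved in the same direction. Under these scalings 23.5% and 23.6% of its tested CCGG sites were called. The share of its called sites that were higher went from 49.3% to 35.9% and 31.0%. CCGG sites inside RefSeq genes of the domain, 306 in number, had a median of 18 counts before and 21 at day 4, and the 188 sites outside genes had medians of 19 and 20.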
